A study of Mus musculus with 7 samples.

Results

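Genes of the unfolded protein response and the integrated stress response were followed in CD11b+ dendritic cells (DCs) of infant and adult mice. The 38 genes were chosen by name, and each was found once among the 48440 rows of the gene tables. They were 4 genes that sense or relay stress in the endoplasmic reticulum (ER), 14 ER chaperones and folding enzymes, 8 genes of ER-associated degradation, 2 genes of the translocon and 10 genes of the Atf4 arm. The libraries were 4 from infants of 2 to 3 weeks and 3 from adults of 7 weeks, all of strain B6. Every animal of either age had been given house dust mite allergen and lipopolysaccharide (LPS) intranasally, and the lung-migratory DCs were sorted 24 hours later from the mediastinal lymph node, which drains the lung. The sorted cells carried CD11c, CD11b and a high level of MHC class II, and lacked B220, CD64 and CD103. Unstimulated cells were not analysed here. Nothing in the labels tells if each library came from a separate animal or from pooled animals. The p-values therefore cover only how far these libraries vary among themselves, which may be technical.

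The ER folds secreted and membrane proteins, and when unfolded protein builds up there, the sensors IRE1 (encoded by Ern1), ATF6 and PERK (encoded by Eif2ak3) are released from the chaperone BiP (encoded by Hspa5) and become active. IRE1 splices the mRNA of Xbp1, and XBP1 and ATF6 switch on chaperone and degradation genes, many through a promoter motif called the ER stress element. PERK phosphorylates the translation factor eIF2, which slows protein synthesis but favours the translation of Atf4 mRNA; kinases that answer to amino acid shortage, viral RNA or haem loss act on the same factor, and this shared route is the integrated stress response. In some kinds of mouse DC the IRE1 and XBP1 branch is known to be active at rest and to matter for DC homeostasis. Counts per gene show neither the splicing of Xbp1 mRNA, nor the phosphorylation of eIF2, nor the translation of Atf4.

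Some members with results below, and 2 textbook Atf4 targets, serve as examples of how the ER chaperone arm and the Atf4 arm can be addressed. Their promoters are given here. Each is the 250 bases before the RefSeq start site in GRCm38.p6, read 5′ to 3′ on the strand of the gene, and capitals mark the fixed letters of a motif found on either strand. The motifs searched, on both strands, were the ER stress element (CCAAT, then 9 bases of any kind, then CCACG), the ER stress element II (ATTGG, then 1 base of any kind, then CCACG), the XBP1 motif TGACGTGG and the C/EBP-ATF composite element TGATGNAA, to which Atf4 is known to bind.
Hspa5: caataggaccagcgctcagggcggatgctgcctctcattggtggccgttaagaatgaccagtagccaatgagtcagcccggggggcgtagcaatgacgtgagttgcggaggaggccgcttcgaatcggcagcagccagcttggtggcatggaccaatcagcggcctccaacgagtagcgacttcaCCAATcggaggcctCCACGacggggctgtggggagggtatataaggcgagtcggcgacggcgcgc
Hsp90b1: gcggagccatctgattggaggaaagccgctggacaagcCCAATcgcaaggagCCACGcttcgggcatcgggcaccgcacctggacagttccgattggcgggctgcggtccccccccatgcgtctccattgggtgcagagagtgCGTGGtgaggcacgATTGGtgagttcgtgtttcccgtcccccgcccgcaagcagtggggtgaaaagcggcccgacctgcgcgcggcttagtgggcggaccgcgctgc
Calr: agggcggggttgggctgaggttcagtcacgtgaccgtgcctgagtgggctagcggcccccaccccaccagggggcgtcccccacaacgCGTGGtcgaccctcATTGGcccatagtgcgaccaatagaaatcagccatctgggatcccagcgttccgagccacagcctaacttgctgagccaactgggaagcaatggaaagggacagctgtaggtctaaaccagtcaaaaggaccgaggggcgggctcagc
Herpud1: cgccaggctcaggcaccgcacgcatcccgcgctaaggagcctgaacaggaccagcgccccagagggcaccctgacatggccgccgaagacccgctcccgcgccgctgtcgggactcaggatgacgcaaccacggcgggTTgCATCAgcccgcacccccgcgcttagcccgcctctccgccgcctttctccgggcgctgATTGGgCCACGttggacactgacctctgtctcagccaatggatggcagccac
Ppp1r15a: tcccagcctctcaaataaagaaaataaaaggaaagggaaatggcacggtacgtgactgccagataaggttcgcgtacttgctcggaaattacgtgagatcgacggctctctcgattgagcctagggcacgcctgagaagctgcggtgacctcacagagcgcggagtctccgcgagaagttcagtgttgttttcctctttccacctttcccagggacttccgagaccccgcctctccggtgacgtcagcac
Chac1: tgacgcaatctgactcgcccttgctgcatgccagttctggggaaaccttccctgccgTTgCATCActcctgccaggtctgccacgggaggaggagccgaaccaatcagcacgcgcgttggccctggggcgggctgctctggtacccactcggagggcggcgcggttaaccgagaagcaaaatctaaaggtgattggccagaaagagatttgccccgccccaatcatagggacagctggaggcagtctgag
Asns: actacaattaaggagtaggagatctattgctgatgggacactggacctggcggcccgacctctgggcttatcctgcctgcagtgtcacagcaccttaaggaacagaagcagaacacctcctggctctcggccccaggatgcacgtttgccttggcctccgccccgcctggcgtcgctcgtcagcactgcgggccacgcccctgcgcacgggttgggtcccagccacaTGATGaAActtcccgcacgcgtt

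Hspa5 (chr2:34771840-34772089, plus strand) held 1 ER stress element, 65 to 47 bases before the start site. Hsp90b1 (chr10:86705445-86705694, minus strand) held 2 and Calr (chr8:84846932-84847181, minus strand) held 1. Herpud1 (chr8:94386179-94386428, plus strand) held an ER stress element II, 52 to 42 bases before the start site, and a composite element, 112 to 105 bases before it, which did not overlap. Chac1 (chr2:119350992-119351241, plus strand) and Asns (chr6:7693210-7693459, minus strand) each held 1 composite element. Ppp1r15a (chr7:45526269-45526518, minus strand) held none of these 4 motifs, which says only that those letters are not in this window. Eif2ak3, Derl2, Sesn2, Dnajb9, Ddit3, Xbp1 and Edem2, which also had results below, held none of the 4 either and are not shown. The same was true of Trib3 and Atf5 of the Atf4 arm. GENCODE M21 places the starts of Hspa5, Hsp90b1, Calr, Chac1 and Asns further upstream than RefSeq, so part of each of these windows lies within the GENCODE gene. The ER stress element of Hspa5 and the composite element of Asns fall in that part.

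Of the 33 members in the RefSeq promoter table, 9 held an ER stress element (27.3%), against 37 of all 32851 promoter windows of the same length (0.113%). These were Hspa5, Hsp90b1, Calr, Canx, Creld2, Dnajc3 and Pdia6 of the chaperones and Derl3 and Syvn1 of ER-associated degradation. The composite element was in 4 members (12.1%), Asns, Chac1, Nupr1 and Herpud1, against 1134 windows (3.45%). The ER stress element II was in Herpud1 alone of the members and in 10 windows (0.0304%), and the XBP1 motif was in no member and in 185 windows (0.563%). Atf6, Derl1, Hyou1, Manf and Ppp1r15b had no entry in the promoter table. Members were counted by gene and the background by window, and the windows of the members are among all windows. The members were chosen as known genes of these responses, so the shares are a description and no test.

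The libraries held 18022302 to 20377361 exon reads in infants and 20064331 to 22316484 in adults, and 12261 genes had reads enough to be tested. Markers of migratory DCs were present at both ages: Ccr7, a chemokine receptor that leads DCs into lymph nodes, lay between 4599 and 5218 counts scaled to library size (CPM) in infants and between 5518 and 6392 CPM in adults. It was lower in every infant library, and 10 of the 14 such markers had negative log2 fold changes, with a median of -0.29. The groups did not overlap for 3 (21.4%, against 15.5% of all genes), all lower in infants (7.58% of all genes). None of the 14 was called by edgeR, DESeq2 or limma-voom. Their summed level overlapped between the ages, at 46782 to 68270 CPM in infants and 44841 to 53256 CPM in adults. Most of the members with separate groups, described below, were lower in infants too, and the part of these markers in their values was not tested. Macrophage and monocyte markers summed to 561 to 1645 CPM in infants and 601 to 1244 CPM in adults, and DESeq2 called 2 of them, Adgre1 higher and Marco lower in infants. Markers of another DC type, cDC1, summed to 61.6 to 79.6 CPM in infants and 47.4 to 53.8 CPM in adults, higher in every infant library. DESeq2 called 1 of these 8 markers, higher in infants (it called 1.57% of all genes), while 5 had negative log2 fold changes. Plasmacytoid DC markers summed to 68.7 to 90.7 CPM in infants and 75.9 to 85.0 CPM in adults. The part of these DC types in the values of the members was not tested. Markers of neutrophils, T cells and B cells each summed to less than 50 CPM in every library, and Ly6g of neutrophils and Tnfrsf17 of plasma cells had no read. Infant 2 stood apart from the other infants: it differed from each of them by a chi-square of 91.0 to 140 per degree of freedom, while infants 1, 3 and 4 differed from each other by 16.9 to 31.1. Malat1, a nuclear RNA, was at 13539 CPM in infant 2, against 3108 to 3728 CPM in the other infants and 3058 to 4411 CPM in adults. The worksheet name kept with the table of adult 3 names another library than its title, so the table may be of another library, while those of the other 6 libraries match theirs. Values without infant 2 or adult 3 are given beside some members below. For others a range is given over fits that include those with any 1 library left out.

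**Figure D1:**
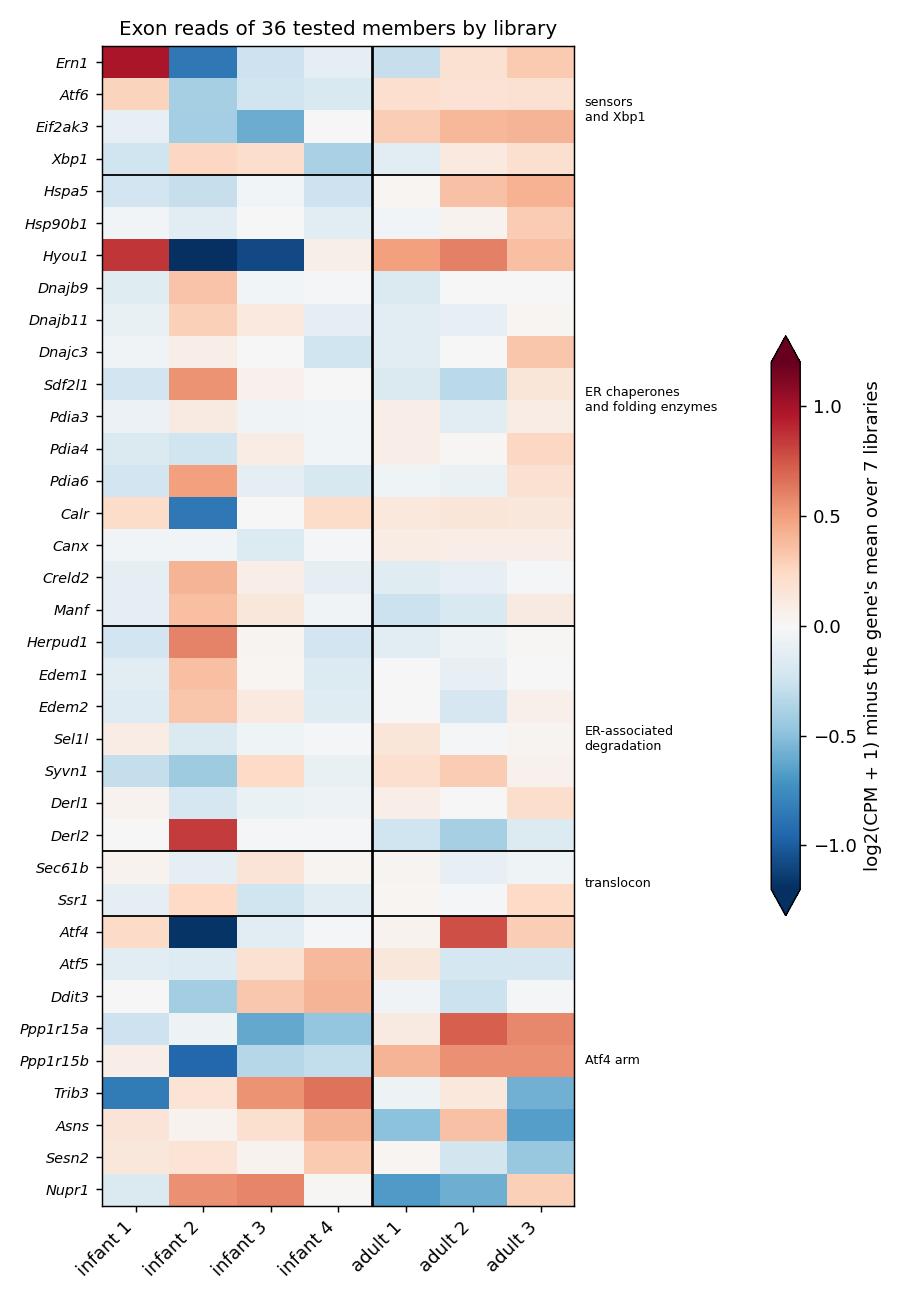
Exon reads of the 36 tested members (rows, grouped by role) in the 4 infant libraries (left) and the 3 adult libraries (right), as log2(CPM + 1) minus the mean of the gene over the 7 libraries, with colours clipped at the ends of the scale. Infant 2 differs from infants 1, 3 and 4 in many rows, such as Derl2 (294 CPM, against 162 to 163 CPM in those infants) and Atf4 (22.8 CPM, against 47.8 to 62.2 CPM).

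The members spanned a wide range of levels, set here per length of exon as the deposited TPM values. Ppp1r15a, which encodes GADD34, the stress-induced subunit that brings a phosphatase to eIF2, ranked first of the 38, at 508 ± 86.2 TPM in infants (SD, n = 4) and 956 ± 214 TPM in adults (SD, n = 3). Herpud1, a membrane protein of the degradation complex, ranked second at 446 ± 110.1 TPM in infants and 433 ± 22.1 TPM in adults. Pdia3, Sec61b and Hspa5 followed, with Hspa5 at 245 ± 19.6 TPM in infants and 360.2 ± 53.5 TPM in adults. The order of Pdia3, Sec61b and Hspa5 was not the same at each age: in infants Pdia3 averaged 321 TPM, Sec61b 297 TPM and Hspa5 245 TPM, and in adults Pdia3 averaged 345 TPM, Sec61b 299.7 TPM and Hspa5 360.2 TPM. At the other end, Atf5, Trib3, Chac1 and Derl3 averaged 0.355 to 1.24 TPM at either age. The sensors were low as mRNAs, with Ern1 at 1.5 ± 1.1 TPM in infants and 1.55 ± 0.38 TPM in adults, while Xbp1, the target of Ern1, was at 133 ± 23.4 TPM in infants and 150.3 ± 18.8 TPM in adults.

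Between infants and adults, no member's exon reads passed the test over all genes, and the members that separated the ages were a share near that of all genes. Eif2ak3, Hspa5, Ppp1r15a and Ppp1r15b were lower in every infant library than in any adult library, and Derl2 and Sesn2 were higher. At a Benjamini-Hochberg adjusted p under 0.05, the quasi-likelihood test of edgeR called 0 of the 36 tested members and 0.0163% of all genes. At an unadjusted p under 0.05 there were 6 members, the 4 lower and 2 higher genes just named, or 16.7% of the 36 against 13.3% of all genes (6.53% higher and 6.73% lower). DESeq2 called 2 members, Ppp1r15a and Ppp1r15b, both lower in infants, where it called 1.57% of all genes. Limma-voom called 0 members and 0.0245% of all genes. By DESeq2 and by limma-voom the same 6 members had an unadjusted p under 0.05, as had 15.3% and 13.8% of all genes. The groups did not overlap for 7 members, these 6 and Canx, or 19.4% against 15.5% of all genes; among these tested members the infants lay above the adults for 2 (7.97% of all genes) and below them for 5 (7.58%). Without infant 2 that count was 11 of 36 (30.6%, against 21.2% of all genes), and without infant 1 it was 12 (33.3%, against 28.6%). In bulk RNA, less RNA per cell and fewer cells of a kind within the sort cannot be told apart. Derl3 and Chac1 had too few reads to be tested.

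**Figure D2:**
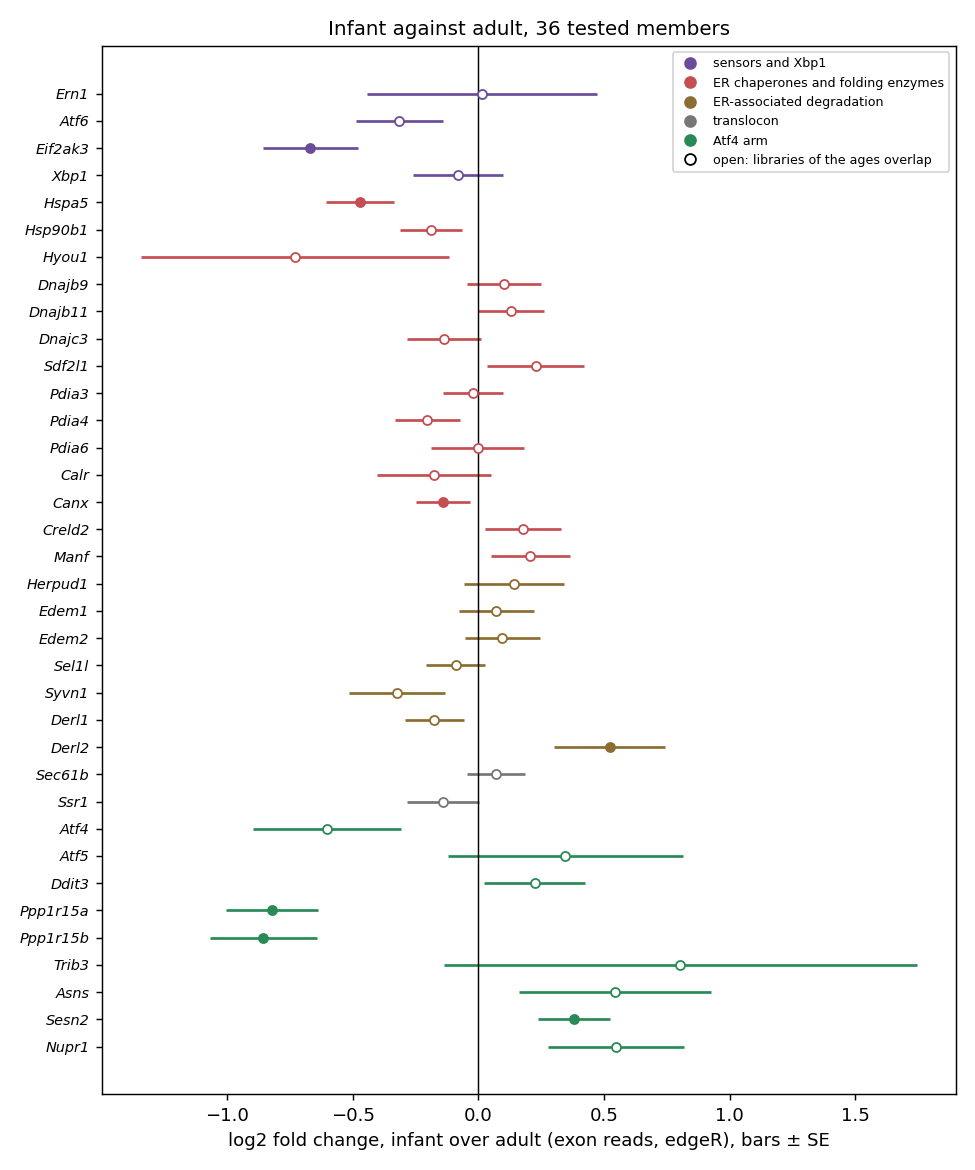
Log2 fold change of exon reads, infant over adult, for the 36 tested members by role, with bars of 1 SE from edgeR; filled points are the 7 members whose infant and adult libraries do not overlap. The members with the most negative values were Ppp1r15b (-0.86), Ppp1r15a (-0.82) and Hyou1 (-0.73), and the one with the most positive was Trib3 (0.80), whose bar crosses 0.

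Of the 4 sensors and relays, Eif2ak3 alone had groups that did not overlap, where the groups did not overlap for 15.5% of all genes. Eif2ak3 (chr6:70844515-70905245) was at 12.5, 9.88, 8.55 and 13.4 CPM in the infant libraries, against 16.7, 18.04 and 18.09 CPM in the adult libraries. The adults were tightly grouped and all infants lay below them, with a log2 fold change of -0.67 (SE 0.19, edgeR unadjusted p = 0.00540, adjusted p = 0.283). With any 1 library left out it ran from -0.78 to -0.56. Gm43292, on the opposite strand, touches an exon of Eif2ak3, so the values of Eif2ak3 are uncertain by any reads of that neighbour. Atf6 (chr1:170704674-170867771) was at 34.6, 21.4, 23.9 and 24.97 CPM in infants and 33.05, 32.2 and 32.5 CPM in adults. Infant 1 was above every adult and the other infants were below, with a log2 fold change of -0.31 (SE 0.17, edgeR adjusted p = 0.435). Ern1 (chr11:106394650-106487852) was at 10.3, 2.16, 3.82 and 4.31 CPM in infants and 3.73, 5.50 and 6.08 CPM in adults, so infant 1 again stood above all others. Its log2 fold change was 0.02 (SE 0.46, edgeR adjusted p = 0.990) and was -0.57 without infant 1. Xbp1 (chr11:5520659-5525893) was at 159, 224, 219 and 143 CPM in infants and 171, 204 and 216 CPM in adults, interleaved between the ages, with a log2 fold change of -0.08 (SE 0.18, edgeR adjusted p = 0.858).

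Among the 14 chaperones and folding enzymes, Hspa5 and Canx had groups that did not overlap (14.3%, against 15.5% of all genes). Hspa5 alone had an unadjusted p under 0.05 by edgeR (7.14%, against 13.3% of all genes). Hspa5 (ENSMUSG00000026864, chr2:34771970-34777547) had 433, 419.7, 497 and 428 CPM in infants, against 517, 649 and 679.5 CPM in adults. All infants lay below all adults, infant 3 being nearest to adult 1, and the log2 fold change was -0.47 (SE 0.14, edgeR unadjusted p = 0.00603, adjusted p = 0.283). With any 1 library left out it ran from -0.58 to -0.39. No other gene overlaps Hspa5 in GENCODE M21, and all of its exon reads mapped to 1 place. Canx, the membrane chaperone calnexin, which binds sugar chains of glycoproteins, was at 204, 204, 186 and 207 CPM in infants and 222, 220.1 and 219.9 CPM in adults. The infants lay below the adults by a small margin, with a log2 fold change of -0.14 (SE 0.11, edgeR unadjusted p = 0.222, adjusted p = 0.558). For Canx it ran from -0.17 to -0.11 with any 1 library left out. Its soluble partner Calr, calreticulin, was at 327, 155, 282 and 328 CPM in infants and 305, 311 and 309 CPM in adults, with infant 2 far below the others. The log2 fold change of Calr was -0.18 (SE 0.23), which was 0.017 without infant 2.

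The other chaperones gave log2 fold changes on either side of 0. Hsp90b1, the ER form of the chaperone HSP90, had one of -0.19 (SE 0.12), though 7.14% of its exon reads mapped to more than 1 place. Hyou1, which exchanges the nucleotide on BiP, had one of -0.73 (SE 0.61) from few reads: 143, 14, 18 and 66 exon reads in infants and 112, 123 and 92 in adults, so infant 1 was above all adults and infants 2 and 3 far below. Its log2 fold change was -1.51 without infant 1 and -0.41 without infant 2. The BiP co-chaperones Dnajb9, Dnajb11 and Dnajc3 had log2 fold changes of 0.10, 0.13 and -0.13, and Sdf2l1, which works with Dnajb11, of 0.23. The disulfide isomerases Pdia3, Pdia4 and Pdia6 had log2 fold changes of -0.019, -0.20 and -0.0015. Creld2 and Manf, both ER stress-induced proteins, had log2 fold changes of 0.18 and 0.21. Without infant 2, Sdf2l1 was at 0.053, Creld2 at 0.050, Manf at 0.11 and Dnajb11 at 0.045. Without adult 3, Hsp90b1 was at -0.084 and Pdia4 at -0.13. Over the 14 genes 9 had negative values, and the median log2 fold change was -0.08, against 0.0016 over all tested genes; without adult 3 it was 0.012. None was called by edgeR, DESeq2 or limma-voom, and 1, Hspa5, had an unadjusted p under 0.05 by edgeR.

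**Figure D3:**
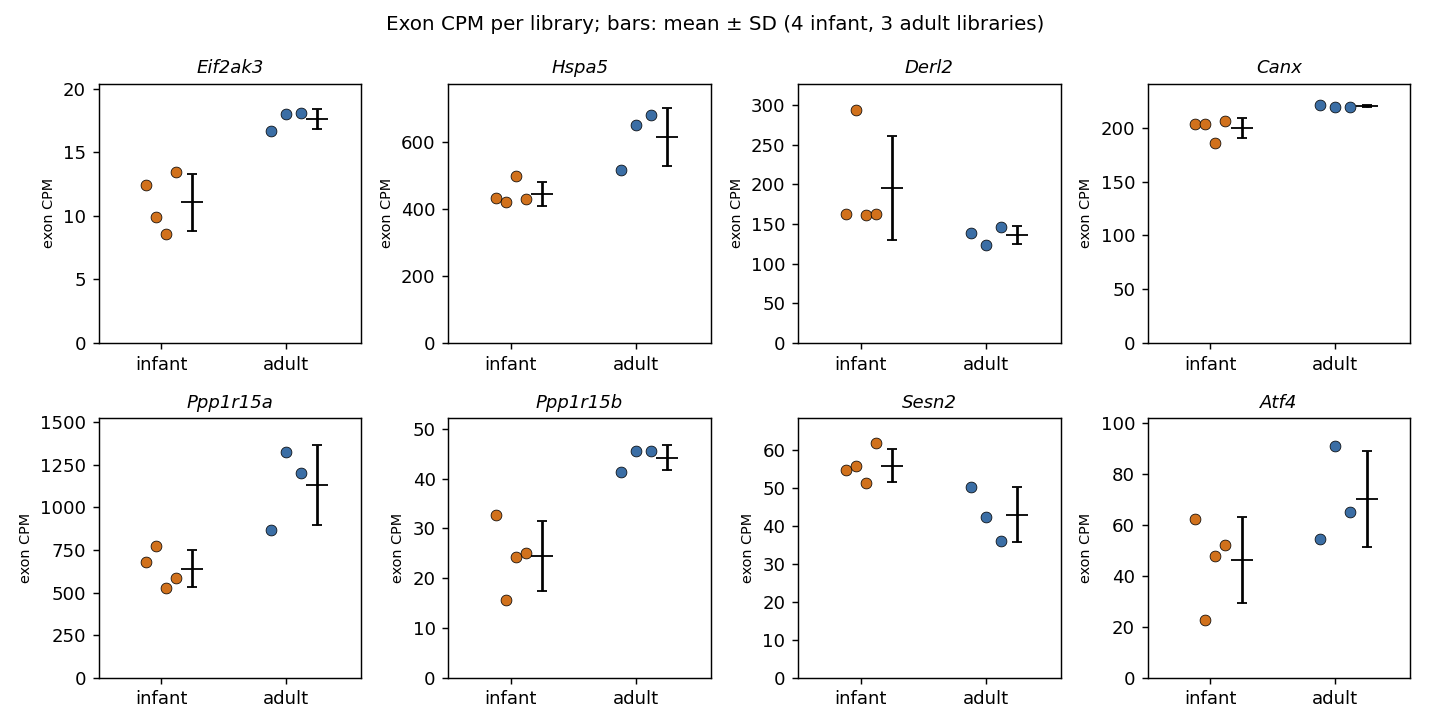
Exon CPM of 8 members in each infant library (left) and adult library (right), with the mean and SD of each age. Points of the ages do not overlap for Eif2ak3, Hspa5, Derl2, Canx, Ppp1r15a, Ppp1r15b and Sesn2, and overlap for Atf4, where infant 1 (62.2 CPM) was above adult 1 (54.5 CPM).

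In ER-associated degradation, which returns misfolded proteins to the cytosol for destruction, 1 of 7 tested genes had groups that did not overlap (14.3%, against 15.5% of all genes). Derl2 (chr11:71007164-71019841), a channel component, was at 163, 294, 162 and 162 CPM in infants, against 138, 124 and 146 CPM in adults. Infants 1, 3 and 4 were almost level just above the adults, and infant 2 was far higher. Its log2 fold change was 0.52 (SE 0.22, edgeR unadjusted p = 0.0384, adjusted p = 0.358), and 0.25 without infant 2; without adult 3 it was 0.58 (edgeR unadjusted p = 0.0600). Mis12, on the opposite strand, touches an exon of Derl2, and reads of the pair cannot be told apart unless strand was used. Herpud1 showed the same library apart, at 363, 642, 434 and 363 CPM in infants and 389.8, 407 and 429 CPM in adults, and its log2 fold change of 0.14 (SE 0.20) was -0.08 without infant 2. Derl1 was at -0.17 (SE 0.12), Sel1l and Syvn1, the adaptor and ubiquitin ligase of the main degradation complex, at -0.09 (SE 0.12) and -0.32 (SE 0.19), and the mannosidase-like genes Edem1 and Edem2 at 0.07 (SE 0.15) and 0.10 (SE 0.15) on the log2 fold change scale. The median of the 7 was 0.07, and without infant 2 it was -0.06, and without adult 2 -0.018. Derl3, which is abundant in plasma cells, had 1 to 12 exon reads per infant library and 1 to 11 per adult library. Of the translocon, Sec61b, a subunit of the channel, and Ssr1, which assists it, had log2 fold changes of 0.07 (SE 0.12) and -0.14 (SE 0.14).

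In the Atf4 arm, both regulatory subunits that reverse eIF2 phosphorylation were lower in every infant library, and the low-abundance Atf4 targets were not. With Sesn2, which was higher in infants, the groups did not overlap for 3 of the 9 tested genes (33.3%, against 15.5% of all genes). Ppp1r15a (ENSMUSG00000040435, chr7:45522916-45526268) had 679, 775, 526 and 584 CPM in infants, against 868, 1325 and 1202 CPM in adults. The highest infant, infant 2, lay below the lowest adult, adult 1, and the log2 fold change was -0.82 (SE 0.18, edgeR unadjusted p = 0.00107, adjusted p = 0.200). Ppp1r15b (ENSMUSG00000046062, chr1:133131143-133139783), the constitutive subunit, had 32.8, 15.7, 24.3 and 24.97 CPM in infants and 41.3, 45.7 and 45.6 CPM in adults. All infants were below all adults, infant 2 lowest, with a log2 fold change of -0.86 (SE 0.21, edgeR unadjusted p = 0.00234, adjusted p = 0.243). DESeq2 gave adjusted p = 0.00720 for Ppp1r15a and adjusted p = 0.0222 for Ppp1r15b. Over 19 alternatives to the edgeR fit the log2 fold change ran from -0.98 to -0.69 for Ppp1r15a and from -1.03 to -0.69 for Ppp1r15b, and DESeq2 was the 1 alternative that called either. For Ppp1r15a 7.5% and for Ppp1r15b 5.26% of exon reads mapped to more than 1 place. On the opposite strand Tulp2 touches an exon of Ppp1r15a and Gm26616 touches an exon of Ppp1r15b. The labels leave the use of strand in counting unstated, so these values are uncertain by any reads of those neighbours.

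Atf4 itself (chr15:80255184-80257540) was at 62.2, 22.8, 47.8 and 52.0 CPM in infants and 54.5, 90.9 and 65.0 CPM in adults. Infant 1 was above adult 1, so the ages overlapped, and the log2 fold change was -0.60 (SE 0.30, edgeR unadjusted p = 0.0688, adjusted p = 0.396); without infant 2 it was -0.38 and without adult 2 -0.37. Ddit3, which encodes the death-associated factor CHOP, was at 32.8, 24.3, 41.3 and 43.8 CPM in infants and 31.8, 27.3 and 32.1 CPM in adults. Infant 2 was below every adult and the other infants above, with a log2 fold change of 0.23 (SE 0.20, edgeR adjusted p = 0.618); without infant 2 it was 0.37 and without infant 4 0.097. Sesn2 (chr4:132492032-132510501), which restrains mTORC1 when amino acids are short, was at 54.7, 55.6, 51.1 and 61.9 CPM in infants and 50.3, 42.3 and 35.9 CPM in adults. It was higher in every infant, infant 3 only just above adult 1, with a log2 fold change of 0.38 (SE 0.14, edgeR unadjusted p = 0.0246, adjusted p = 0.331); without adult 3 it was 0.27 (edgeR unadjusted p = 0.112). Nupr1, a small stress-induced chromatin protein, had a log2 fold change of 0.55 (SE 0.27), with adult 3, at 90.2 CPM, above infants 1 and 4, at 65.2 and 74.5 CPM; without adult 3 the log2 fold change was 0.93.

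The remaining Atf4 targets were near the limit of counting. Trib3, a pseudokinase that dampens the response, had 0, 19, 28 and 34 exon reads in infants and 16, 21 and 4 in adults, and a floor of 3 reads lies at 0.142 to 0.171 CPM in infants and 0.135 to 0.147 CPM in adults. Chac1, which degrades glutathione, had 9, 13, 24 and 7 exon reads in infants and 1, 8 and 6 in adults, too few to be tested. In CPM its infants lay just above its adults, the nearest being infant 4 at 0.373 CPM and adult 2 at 0.361 CPM. Asns, asparagine synthetase, had 65, 53, 56 and 73 exon reads in infants and 36, 82 and 27 in adults. In CPM, adult 2 lay above infants 1, 2 and 3 for Asns and adults 1 and 3 below every infant, and the log2 fold change was 0.54 (SE 0.38, edgeR adjusted p = 0.528). Atf5, a related factor, had 14 to 29 exon reads in infants and 14 to 25 in adults. For Trib3 and Atf5 the log2 fold changes were 0.80 (SE 0.94) and 0.35 (SE 0.47), and no difference in Trib3, Asns or Atf5 was detectable at this depth.

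Set side by side, both arms had a lower summed level in infants, and in each arm the separation of the ages was lost without 1 gene. The 14 chaperones summed to 2139 to 2243 exon CPM in infants and 2282 to 2604 exon CPM in adults, and without Hspa5 the 13 others summed to 1707 to 1823 CPM in infants and 1716 to 1925 CPM in adults, which overlap (mean 1747 CPM in infants and 1802 CPM in adults). The 10 genes of the Atf4 arm summed to 809 to 1007 exon CPM in infants and 1095 to 1586 exon CPM in adults, and without Ppp1r15a the 9 others summed to 232 to 283 CPM in infants and 227 to 271 CPM in adults, which also overlap. Ppp1r15a made up 65.0% to 77.0% of its arm's CPM in infants and 79.3% to 83.6% in adults. Gene by gene, the median log2 fold change was -0.08 for the chaperones and 0.35 for the 9 tested genes of the Atf4 arm, of which 6 had positive values. The second median depended on the genes of few reads: restricted to members that reached 5 CPM in 3 or more libraries it was -0.20, and without infant 4 the median of all 9 was 0.10. The difference between the arms was not tested.

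Cytosolic heat-shock genes had lower sums in every infant library as well. Immediate-early genes, which are switched on quickly by stimulation or handling, had lower sums in infants except that infant 2 lay above adult 1. Of the 13 immediate-early genes examined, 11 were tested and 8 had an unadjusted p under 0.05, each lower in infants, where 6.73% of all genes were. Their summed level was 1921 to 3509 exon CPM in infants and 3374 to 6431 exon CPM in adults, and their median log2 fold change was -1.07. Fos was at 51.9, 16.1, 13.5 and 30.2 CPM in infants, against 162, 340.1 and 302 CPM in adults (log2 fold change -3.26, SE 0.44, edgeR adjusted p = 0.0605). Of the 10 cytosolic heat-shock genes, 9 were tested and 7 had an unadjusted p under 0.05, each lower in infants, where 6.73% of all genes were. The 10 genes summed to 2356 to 3266 exon CPM in infants and 3412 to 6410 exon CPM in adults. No gene of either list was called by edgeR. DESeq2 called 4 immediate-early and 2 heat-shock genes, where it called 1.57% of all genes. Limma-voom called 1 immediate-early gene and 0.0245% of all genes. The part of either list in the values of Ppp1r15a and Hspa5 was not tested.

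Plasma cells carry high levels of many ER chaperones, so their traces were read as well. Jchain was at 9.41 CPM in adult 3, against 0.0474 to 0.627 CPM in infants and 0.316 and 1.17 CPM in the other adults, and Mzb1 was at 2.06 CPM in adult 3 and at 0.841 CPM or below in every other library. Tnfrsf17 was at 0 in every library and Fkbp11 was at 0 in the infants and in adult 1. Summed over 9 plasma cell genes, of which Ighm took most, the level was 332 to 577 exon CPM in infants and 302 to 341 exon CPM in adults. Without adult 3 the exon log2 fold change of Hspa5 was -0.39 (edgeR adjusted p = 0.540). The part of these traces in the values of adult 3 was not tested.

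Intron reads, which come largely from RNA not yet spliced, gave the 1 member that passed the test. Hspa5 fell in infants: its introns held 146, 76, 33 and 66 reads in infant libraries, against 263, 370 and 332 reads in adult libraries. Scaled to library size these were 125, 72.4, 39.2 and 69.4 intron CPM in infants and 231, 255 and 306 intron CPM in adults. Every infant was below every adult, infant 1 highest and infant 3 lowest of the infants, and the log2 fold change was -1.77 (SE 0.28, edgeR quasi-likelihood adjusted p = 0.0162). Among 9602 genes tested in intron reads its p ranked 5, and edgeR called 52 genes, or 0.542%, of which 46 fell in infants, or 0.479%. DESeq2 gave Hspa5 adjusted p = 2.62e-05 and called 1.6% of all genes. The introns of Hspa5 span 1349 bp of a gene of 5578 bp. The call did not hold without adult 2 (adjusted p = 0.0963), adult 3 (0.114), infant 3 (0.0668) or infant 4 (0.0685), and held without adult 1 (0.0162), infant 1 (0.000463) or infant 2 (0.0235), all by edgeR, with log2 fold changes of -2.12 to -1.56.

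**Figure D4:**
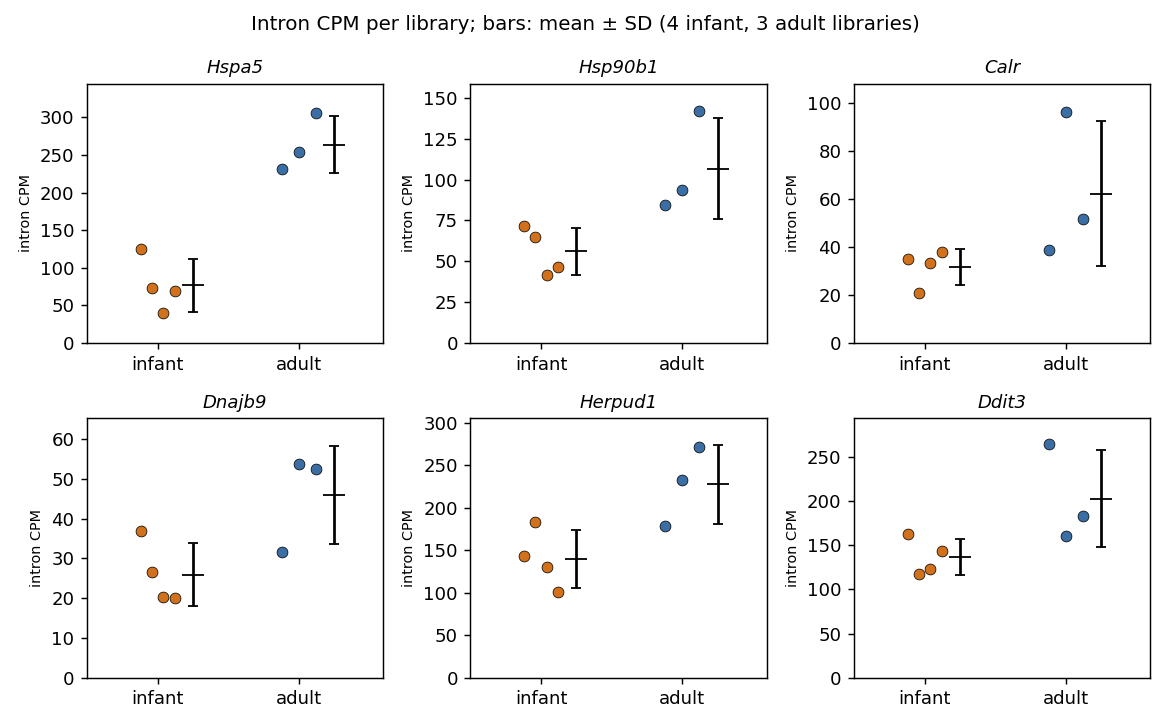
Intron CPM, scaled to the intron reads of each library, of the 6 members with an unadjusted p under 0.05 in intron reads, in each infant library (left) and adult library (right) with the mean and SD of each age. All 6 average lower in infants, and the points do not overlap for Hspa5 (39.2 to 125 in infants, 231 to 306 in adults), Hsp90b1 and Calr.

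Further members had fewer intron reads in infants without passing the adjusted test. Of the 28 members tested in intron reads, 6 had an unadjusted p under 0.05, each lower in infants (21.4%, against 6.64% of all genes lower and 11.4% in either direction). Besides Hspa5 these were Hsp90b1, Calr and Dnajb9 of the chaperones, Herpud1 of ER-associated degradation and Ddit3 of the Atf4 arm. In GENCODE M21 other genes touch exons of Hsp90b1, Herpud1 and Ddit3, some of them on the opposite strand. The values of these members are therefore uncertain by any reads of those neighbours. No other gene overlaps Hspa5, Calr or Dnajb9 there. Hsp90b1 was at 71.9, 64.8, 41.6 and 46.3 intron CPM in infants and 84.4, 93.6 and 142 intron CPM in adults (log2 fold change -0.91, SE 0.28, edgeR adjusted p = 0.184). Herpud1 was at 144, 183, 131 and 101 intron CPM in infants and 178, 233 and 271 intron CPM in adults, where infant 2 was above adult 1 (log2 fold change -0.70, SE 0.23, edgeR adjusted p = 0.210). Calr, Dnajb9 and Ddit3 had intron log2 fold changes of -0.98 (SE 0.36), -0.82 (SE 0.35) and -0.57 (SE 0.22). The groups did not overlap for 5 of the 28, all lower in infants, namely Hspa5, Hsp90b1, Calr, Xbp1 and Edem2 (17.9%, against 6.29% of all genes lower and 11.2% in either direction). The median intron log2 fold change of the 28 was -0.31, with 20 negative values, against 0.02 over all genes. The cytosolic heat-shock genes were lower in intron reads too, with 7 of 8 tested at an unadjusted p under 0.05 and a median of -1.52, and their part in the intron reads of Hspa5 was not tested.

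Intron and exon reads were then set against each other, a comparison added after the data were seen. Hspa5 had 1.598, 0.952, 0.379 and 0.821 intron reads per 100 exon reads in infants, against 2.28, 2.57 and 2.40 in adults. Its intron over exon difference between the ages was -1.40 on the log2 scale (SE 0.33). That difference did not pass over all genes (limma unadjusted p = 0.000837, adjusted p = 0.187, with 0.0446% of all genes called). Of the fits with 1 library left out, 6 were rated the same as the fit of all libraries and 1 stronger. Without infant 1 the difference was -1.69 (limma adjusted p = 0.0303). Ppp1r15a went the other way: its intron reads, at 339.7, 436, 377 and 373 intron CPM in infants and 602, 249 and 349.5 intron CPM in adults, overlapped between the ages, with a log2 fold change of -0.07 (SE 0.24), while its exon reads did not overlap. At an unadjusted p under 0.05 by limma, the intron over exon difference was negative for Hspa5, Hsp90b1, Dnajb9, Herpud1 and Ddit3 and positive for Atf6, Canx and Ppp1r15a, which is 8 of 28 members against 10.9% of all genes (5.47% in each direction), and limma called 0 members.

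**Figure D5:**
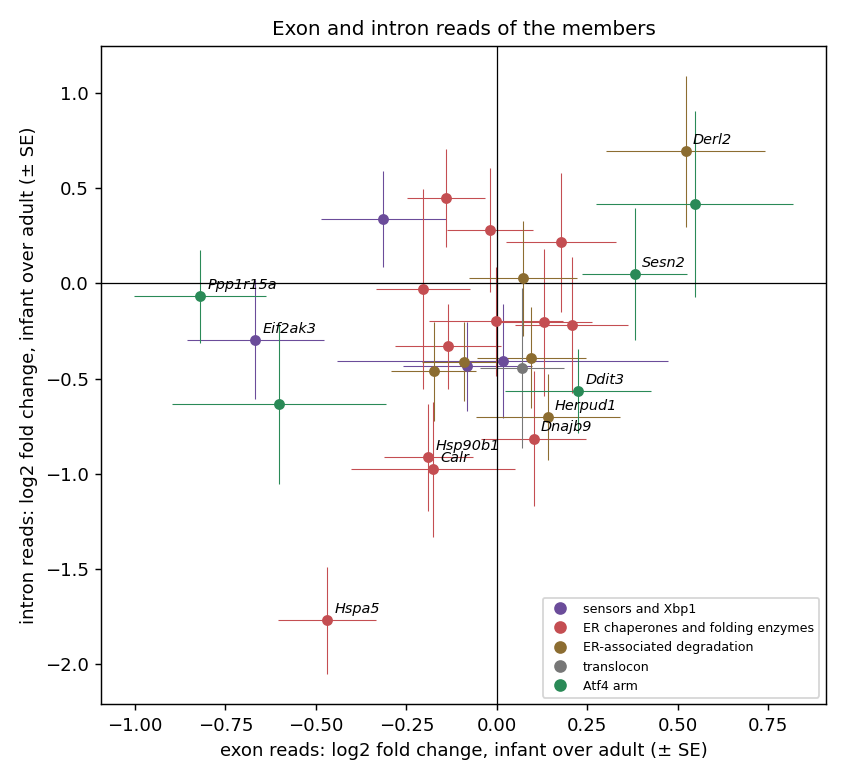
Log2 fold change, infant over adult, of exon reads (x axis) and intron reads (y axis) for the 28 members tested in both, coloured by role, with bars of 1 SE. Hspa5 lies lowest, at -0.47 in exon reads and -1.77 in intron reads, and Ppp1r15a lies far left at -0.82 in exon reads and near 0 in intron reads (-0.07).

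Members were also set out by the ER stress element of their promoters. The 8 tested members with the element had a median exon log2 fold change of -0.16, 7 of them negative, and the 23 tested members in the promoter table without it had a median of 0.10, 8 of them negative. Members with no promoter entry are in neither set: Ppp1r15b (-0.86), Hyou1 (-0.73), Atf6 (-0.31), Derl1 (-0.17) and Manf (0.21) in exon log2 fold change. In intron reads the medians were -0.33 for 7 members with the element and -0.34 for 18 without. These are descriptions of chosen genes, and the difference was not tested.

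Outside the 38 members, no further gene of the same routes was called by edgeR in exon reads. A list of 11 genes covered other eIF2 kinases, eIF2, eIF2B, the factor that recharges eIF2, and Eif2a, whose product eIF2A is not a subunit of eIF2. Of these, 0 were called by edgeR, DESeq2 or limma-voom. By edgeR 2 had an unadjusted p under 0.05 (18.2%, against 6.53% of all genes higher and 13.3% in either direction). Both were higher in infants: Eif2b2 (log2 fold change 0.27, SE 0.12) and Eif2b4 (0.36, SE 0.16). Eif2s2 and Eif2b5 followed at 0.26 (SE 0.13) and 0.33 (SE 0.17), and the list summed to 621 to 741 exon CPM in infants and 574 to 601 exon CPM in adults. Of 36 further Atf4 targets 30 were tested, 0 were called by edgeR or limma-voom, and 1, Atf3, was called by DESeq2. By edgeR 4 had an unadjusted p under 0.05, all lower in infants (13.3%, against 6.73% of all genes lower and 13.3% in either direction). Atf3, a transcription factor of the same family that is also an immediate-early gene, was at 35.4, 18.7, 35.4 and 31.3 CPM in infants, against 45.3, 115 and 54.6 CPM in adults. All infants were below all adults, with a log2 fold change of -1.25 (SE 0.32, edgeR adjusted p = 0.246, DESeq2 adjusted p = 0.0160). In intron reads Atf3 fell by 2.53 on the log2 scale (SE 0.47, edgeR adjusted p = 0.0222). Xpot, which exports tRNA, was at -0.67 (SE 0.23), the cystine carrier Slc7a11 at -0.48 (SE 0.17) and Jdp2 at -0.99 (SE 0.37) in exon log2 fold change.

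Of 42 further genes of ER folding and transport 41 were tested, 0 were called by edgeR, DESeq2 or limma-voom, and 5 had an unadjusted p under 0.05, 1 higher and 4 lower in infants, or 12.2% against 13.3% of all genes. Sec11c, a subunit of the signal peptidase, was higher (log2 fold change 0.49, SE 0.20). Ganab and Uggt1, which trim and check the sugar chains read by Canx and Calr, were among the lower ones, at -0.34 (SE 0.13) and -0.46 (SE 0.20). The median exon log2 fold changes of the 3 lists were 0.15, -0.05 and 0.05, against 0.0016 over all tested genes.

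The genes whose exon reads followed Hspa5 and Atf4 most closely over the 7 libraries lay outside the lists examined, apart from Ccl22, a marker of migratory DCs. Among 8273 genes whose mean log2 CPM reached 3, those with the highest Pearson r with Hspa5 were Kmo, an enzyme of tryptophan breakdown, at 0.99, the kinase Sgk1 at 0.98, the transcription factor Klf2 at 0.97, the fatty acid receptor Ffar2 at 0.97 and the transporter Abcc3 at 0.95. For Atf4 they were Rrp8, Mcmbp and Cflar at 0.99 each, and H2-Q5 and the chemokine Ccl22 at 0.98 each. These are descriptions over 7 libraries that share the contrast of age and, for Atf4, the low value of infant 2.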

How the data were processed

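Per the file headers, the deposited table of each library gives read counts per gene for exons and introns, with RPKM and TPM values made by the authors. The submitters' processing notes name mm10 and, without saying what each did, Cuffnorm 2.2.1, Cuffdiff 2.2.1, Cufflinks 2.2.1.0, TopHat and TopHat2 (2.1.0, 2.0.14). The counting program, annotation and strand setting are unstated there. Members were matched by symbol, and positions and neighbours come from GENCODE M21. Promoters come from RefSeq (GRCm38.p6). The 38 members and all lists were chosen with earlier results of these data known.

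Exon reads were the main measure. Genes with low counts were removed with the default filter of edgeR, TMM factors were applied, and age was tested with the quasi-likelihood method of edgeR 4.0.16 in R 4.3.3, adjusted by Benjamini-Hochberg over 12261 genes. Intron reads were fitted likewise over 9602 genes, with their own library sizes. The difference of log2 intron and log2 exon CPM, with a prior count of 2, was fitted with limma 3.58.1 over 8971 genes. DESeq2 1.42.0, limma-voom, RPKM on a log2(value + pseudocount) scale, other filters and scalings, a replicate block and the removal of each library were alternatives. The fits were tested on simulated data. Same-numbered infant and adult libraries had correlations of deviations of 0.0248, -0.0518 and 0.143, so the numbers were not taken to pair them.

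All members are named. Values per library are given for members with an unadjusted p under 0.05 or non-overlapping groups in exon reads and for Hspa5, Xbp1, Ern1, Atf6, Eif2ak3, Atf4, Ddit3, Ppp1r15a, Trib3 and Chac1. A few others are shown because 1 library stood apart in them or their intron reads differed, chosen after their values were seen. Of each other pathway list up to 4 genes with the smallest p are named, apart from 1 that is not reported here, and for Hspa5 and Atf4 the 5 most alike genes.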

Additional observations from a re-analysis of the deposited data

Results flagged for a closer look

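In 64 groups of 4 infant libraries, 36 of exon and 28 of intron values, 7 had 1 library far from the other infants for the size of the group's range (Dixon's 95% limit). Chance gives such a gap in about 1 in 20 groups. In exon reads Hspa5 was at 497 CPM in infant 3, against 419.7 to 433 CPM in the other infants, and Canx was at 186 CPM in infant 3, against 204 to 207 CPM. In infant 2, Pdia6 was at 238 CPM, against 144 to 156 CPM in the other infants, and Derl2 was at 294 CPM, against 162 to 163 CPM. In intron reads Derl2 was at 79.1 CPM in infant 2, against 32.6 to 35.9 CPM in the other infants. Pdia6 was at 69.3 intron CPM in infant 1, against 48.6 to 51.1, and Eif2ak3 at 30.5 intron CPM in infant 4, against 39.1 to 40.2. The values for Derl2 were high in infant 2 in both exon and intron reads. The causes were not tested.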

How the results depend on the processing

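In exon reads edgeR called 2 genes of all tested, DESeq2 193, RPKM with a pseudocount of 0.1 or of 1 each 1, the fit with no filter 8 and the replicate block 1, and leaving out 1 library gave 2 to 10. Members called were 0 in the edgeR fits with any 1 library left out and 2 by DESeq2, and of the other pathway genes DESeq2 called 1. Members with an unadjusted p under 0.05 numbered 5 to 10 with 1 library left out (13.2% to 27.8% of members tested, against 6.79% to 19.8% of all genes), and Eif2ak3, Hspa5, Ppp1r15a and Ppp1r15b were among them each time; members with separate groups numbered 7 to 12 (19.4% to 33.3%, against 19.7% to 28.6% of all genes). In intron reads DESeq2 called 154 genes, the fit with no filter 271 and the replicate block 13, and leaving out 1 library gave 1 to 131 genes and 0 to 1 members. The median log2 fold change of the Atf4 arm was 0.16 with either RPKM pseudocount, -0.20 in genes of 5 CPM or more, 0.19 by limma-voom, 0.080 with the replicate block and 0.10 to 0.39 with 1 library left out. That of the chaperones was -0.12 to 0.012 and that of ER-associated degradation -0.057 to 0.13 with 1 library left out.

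The sign held in 25 of 36 members and turned in 11. Ern1 was -0.16 by limma-voom, -0.0041 with no filter and -0.18 with the replicate block, Xbp1 0.016 with the replicate block, Pdia6 0.0029 by DESeq2 and by RLE factors and 0.030 with the replicate block, and Trib3 -0.19 by limma-voom. With 1 library left out the log2 fold change ran from -0.57 to 0.27 for Ern1, -0.18 to 0.017 for Xbp1, -0.015 to 0.16 for Dnajb9, -0.23 to 0.0060 for Dnajc3, -0.090 to 0.017 for Pdia3, -0.20 to 0.086 for Pdia6, -0.29 to 0.017 for Calr, -0.081 to 0.23 for Herpud1, -0.057 to 0.13 for Edem1 and -0.013 to 0.16 for Edem2. With the replicate block Hspa5 intron reads had a log2 fold change of -1.83 (edgeR adjusted p = 0.0433). The cause was not tested. Few libraries and, for Trib3, Chac1, Asns, Atf5 and Derl3, few reads limit these values.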
